A study of Rattus norvegicus with 40 samples.

Results

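The 600 regions described here are promoters that were neither methylated nor unmethylated in the blood T cells of 1 group of Dahl salt-sensitive rats. They were chosen from measured values: of the 60906 regions in the table that compares kidney with blood in MCW rats on HS chow, 13686 are classed as TSS (transcription start site), and 634 of those had a blood methylation level between 30 and 60%. The rule leaves out 15 imprinted genes by name, which removed 34 regions once gene labels that join several names were split. The remaining 600 regions are 4.38% of the promoter regions of that table and carry 535 gene names. Most promoter regions lay far from this band, and 10168 of them (74.3%) were under 10% in the same blood.

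The study measured DNA methylation by reduced representation bisulfite sequencing, which reads short CpG-rich restriction fragments after bisulfite has converted unmethylated cytosines. T cells came from blood and from kidney of 5 experimental groups with 4 pools of 3 rats each, so that each of the 10 tissue groups holds 4 libraries and 40 libraries exist in all. All rats were of the Dahl SS strain, which develops hypertension on a salt-rich diet. The MCW colony (Dahl SS/JrHsdMcwi) gave 3 of the groups: rats aged 10 weeks on LS chow, rats aged 10 weeks that had 3 weeks of HS chow, and rats aged 7 weeks on LS chow. The CRL colony (Dahl SS/JrHsdMcwiCrl) gave the other two, both aged 10 weeks, 1 on LS chow and 1 on HS chow for 3 weeks. Pools were the unit of sampling, and no sort or gate for the T cells is given in the labels. The deposited tables give 1 level per group and region and no value per pool, so that levels below carry no SD and the read depth is unknown.

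CpG methylation is copied to the new strand after each cell division, and promoters rich in CpG are usually free of it in normal cells. A level near the middle can come from 1 methylated and 1 unmethylated allele, as at imprinted genes, from a mixture of cells that differ, or from sites that are methylated independently of each other. A level from pooled cells does not separate these: the share of cells and the methylation within each cell cannot be told apart. Clustered protocadherins, ribosomal RNA genes and germline genes are known as classes whose promoters can carry methylation in somatic cells.

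Promoter sequences are shown for 10 genes on which the results below turn, as the 250 bases before the transcription start in RefSeq's annotation of assembly GRCr8, 5′ to 3′, with each CG in capitals, the kind of site that carries the methylation. The regions themselves carry coordinates of the rn5 build, and the windows are not given as the measured stretches. The regions of Tdrd6 and Cd8a, at 417 and 327 bp, are wider than a window. Those of Mlst8 and Pcdhga2, with 5 CpGs each, hold more CpGs than the 2 and 3 CG sites of their windows. For the other genes the position of the region relative to the window was not tested. The first 5 belong to regions that stayed between 30 and 60% in every group by the comparisons of kidney with blood. The next 3 belong to regions that were lower in kidney and Cd8a to a region that was higher in kidney. Ndufa10 belongs to the region with the largest difference between chows.
Mlst8: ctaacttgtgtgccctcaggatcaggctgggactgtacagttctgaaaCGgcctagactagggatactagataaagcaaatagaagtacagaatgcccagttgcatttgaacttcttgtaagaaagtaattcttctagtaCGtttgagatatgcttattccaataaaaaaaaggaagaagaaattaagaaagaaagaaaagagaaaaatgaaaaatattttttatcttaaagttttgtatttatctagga
Cdkn1a: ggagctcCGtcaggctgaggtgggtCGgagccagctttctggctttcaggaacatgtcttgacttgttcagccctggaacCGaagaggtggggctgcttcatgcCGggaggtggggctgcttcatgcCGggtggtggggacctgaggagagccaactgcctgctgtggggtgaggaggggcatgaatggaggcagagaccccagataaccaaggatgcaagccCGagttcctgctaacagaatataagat
Pcdhga2: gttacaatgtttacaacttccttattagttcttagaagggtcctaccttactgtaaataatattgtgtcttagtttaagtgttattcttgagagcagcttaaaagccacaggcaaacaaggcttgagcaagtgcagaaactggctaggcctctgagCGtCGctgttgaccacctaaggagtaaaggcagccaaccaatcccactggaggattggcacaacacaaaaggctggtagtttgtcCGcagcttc
Pcdhgb8: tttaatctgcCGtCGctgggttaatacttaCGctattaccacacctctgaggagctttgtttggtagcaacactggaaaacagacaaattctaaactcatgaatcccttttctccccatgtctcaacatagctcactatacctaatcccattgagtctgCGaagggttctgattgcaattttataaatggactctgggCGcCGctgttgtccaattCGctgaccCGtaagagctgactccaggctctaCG
Tdrd6: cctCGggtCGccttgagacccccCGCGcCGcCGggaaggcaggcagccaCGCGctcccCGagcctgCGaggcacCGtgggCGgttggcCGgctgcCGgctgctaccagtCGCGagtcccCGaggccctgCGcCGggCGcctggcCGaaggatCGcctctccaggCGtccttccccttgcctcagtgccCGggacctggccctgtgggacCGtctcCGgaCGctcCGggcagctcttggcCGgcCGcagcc
Palm: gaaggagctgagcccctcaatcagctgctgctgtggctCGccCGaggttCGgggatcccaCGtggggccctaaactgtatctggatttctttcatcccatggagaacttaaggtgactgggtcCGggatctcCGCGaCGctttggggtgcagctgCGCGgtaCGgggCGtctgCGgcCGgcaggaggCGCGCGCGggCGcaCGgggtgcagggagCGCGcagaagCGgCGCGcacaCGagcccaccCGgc
Efna1: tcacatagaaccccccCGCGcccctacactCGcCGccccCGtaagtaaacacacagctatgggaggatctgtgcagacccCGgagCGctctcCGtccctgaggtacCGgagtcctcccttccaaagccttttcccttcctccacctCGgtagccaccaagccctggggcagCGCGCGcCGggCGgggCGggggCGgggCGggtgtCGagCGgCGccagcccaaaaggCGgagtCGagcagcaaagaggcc
Kl: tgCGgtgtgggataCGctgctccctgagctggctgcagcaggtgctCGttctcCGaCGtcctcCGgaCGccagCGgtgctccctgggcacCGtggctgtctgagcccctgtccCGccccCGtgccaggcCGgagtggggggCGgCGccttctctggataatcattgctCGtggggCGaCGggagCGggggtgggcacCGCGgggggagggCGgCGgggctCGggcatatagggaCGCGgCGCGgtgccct
Cd8a: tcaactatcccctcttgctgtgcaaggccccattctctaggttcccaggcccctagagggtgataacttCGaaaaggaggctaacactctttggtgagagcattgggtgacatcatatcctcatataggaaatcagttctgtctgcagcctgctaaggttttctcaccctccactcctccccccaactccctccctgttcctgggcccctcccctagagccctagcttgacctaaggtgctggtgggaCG
Ndufa10: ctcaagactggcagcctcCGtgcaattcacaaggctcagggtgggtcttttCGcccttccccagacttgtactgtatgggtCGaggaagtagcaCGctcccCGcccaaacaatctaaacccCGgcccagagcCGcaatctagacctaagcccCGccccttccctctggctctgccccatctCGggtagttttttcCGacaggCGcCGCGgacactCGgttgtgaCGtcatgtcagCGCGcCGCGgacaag

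The windows differ in CpG content and in base composition, with G and C making up 32.8 to 76.4% of the bases. The Tdrd6 window (chr9:24841204-24841453, plus strand) holds 30 CG sites and the Palm window (chr7:10563008-10563257, minus strand) 27, whereas the Cd8a window (chr4:104923866-104924115, plus strand) and the Mlst8 window (chr10:14008679-14008928, minus strand) hold 2 each. Of the 535 gene names, 368 matched a RefSeq promoter by symbol, with 392 windows in all. The median window of these genes held 14 CG sites (quartiles 7 and 21.3), against 16 for all genes with a promoter region in the table and 5 over all 33469 RefSeq windows. TGCCGC, the core of the motif bound by the imprinting factor ZFP57, was present on either strand in 61 of the 392 windows (15.6%), against 16.7% of the windows of genes with a promoter region and 8.91% of all windows. CACGTG, the E-box, was present in 7.65%, 7.73% and 5.59% of these same sets. CCGG, the site cut in the usual form of the method, was present in 75.3%, 77.2% and 46.2%. The windows of the 600 regions' genes were thus close to those of all genes with a measured promoter region by these counts, which are a description of letters and not of binding.

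The regions were short. A region needs at least 5 CpGs to be listed, and 431 of the 600 had exactly 5, while 63 (10.5%) had 10 or more, against 18.3% of all promoter regions. Their median width was 110 bp (range 12 to 1178), against 69 bp for all promoter regions. The X chromosome held 6 of them (1.00%), against 1.44% of all promoter regions. In the blood that chose them, 251 lay below 40%, 182 from 40 to 50% and 167 at 50% or above, with a median of 42.6% (quartiles 35.7 and 51.1). The regions nearest the edges were Gbx2 at 30.01% just inside and Ddn at 29.99% just outside the lower edge, and Ltb4r at 59.97% just inside and Klhdc9 at 60.11% just outside the upper edge. Kidney levels of these 4 were 14.4% at Gbx2, 25.6% at Ddn, 44.8% at Ltb4r and 44.4% at Klhdc9. The band has no gap at its edges: 62 promoter regions lay from 28 to 30%, 51 from 30 to 32%, 45 from 58 to 60% and 29 from 60 to 62%.

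Because the authors drew regions anew for each table, a region was followed into another table where it shared at least 1 bp with a region there. Between 265 and 465 of the 600 were found in each of the 12 tables that do not use the blood of MCW rats on HS chow, 33 were found in all 14 other tables and 18 in none. Several regions come from repeated sequence. A set of 42 shares both of its levels with another region of the set, among them Olr157, Kdf1, Commd5 and ribosomal RNA units, so that these are copies of the same reads or of near-identical sequence and are uncertain as separate loci.

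Ribosomal RNA units made up 31 of the 600 regions. They carry the names Rn5-8s, Rn45s, Rn28s and LOC257642, whose transcripts form the ribosome's RNA core, and the genome carries many copies. In the blood that chose them they lay at the low end, from 31.3 to 40.5% (median 35.7%). They did not stay in the band: the median was 25.2% in blood of MCW rats on LS chow at 10 weeks, 19.4% at 7 weeks, 26.9% in CRL rats on LS chow and 28.2% in CRL rats on HS chow. In kidney their medians were 22.0% in the MCW HS group, 14.5% and 14.8% in MCW LS at 10 and 7 weeks, and 16.1% and 18.5% in CRL LS and HS. The regions with the name of Rn7sl1, the RNA of the signal recognition particle, stayed higher. At chr6:101136721-101136838 (rn5) Rn7sl1 had blood levels of 45.2% in MCW HS, 37.3% in MCW LS at 10 weeks, 41.8% at 7 weeks, 51.8% in CRL LS and 47.9% in CRL HS.

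The clustered protocadherins, cell adhesion genes on chromosome 18 that neurons use to tell their own processes from others, gave 21 regions from 14 genes, of 42 promoter regions of these clusters in the table. These counts describe a family chosen after the names were seen. Their blood medians were 46.5% in the MCW HS group (range 30.3 to 59.5), 38.1% and 48.2% in MCW LS at 10 and 7 weeks, 46.7% in CRL LS and 51.4% in CRL HS. In the other blood groups 14 of 15, 16 of 17, 10 of 10 and 17 of 19 found regions were still between 30 and 60%. In kidney 6 of 15, 14 of 17, 4 of 10 and 16 of 19 were between 30 and 60% in MCW LS at 10 weeks, MCW LS at 7 weeks, CRL LS and CRL HS. Of the same regions 11, 8, 8 and 6 were called lower in kidney than in blood, and none higher, by the rule on calls given with the results on kidney. Counted as distinct regions these were 8 of 12, 7 of 16, 8 of 10 and 6 of 15. Over all regions 28.0, 19.1, 20.5 and 24.6% were called lower. The largest level of the family in kidney was that of Pcdha12 (chr18:29721726-29721795), with 52.7% against 56.4% in blood of MCW LS rats at 10 weeks, 55.5% against 57.9% at 7 weeks and 53.4% against 54.4% in CRL HS. Its 2 tissues thus differed by less than 5 percentage points in each of these groups.

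The levels in blood were largely kept in the blood groups that the rule did not use. Of the regions found there, 343 of 465 (73.8%) lay between 30 and 60% in MCW LS at 10 weeks. The share was 333 of 454 (73.3%) at 7 weeks in the same colony, 280 of 402 (69.7%) in CRL LS and 348 of 464 (75.0%) in CRL HS. The medians of these groups were 41.1, 40.5, 41.0 and 41.8%. Regions that left the band fell below it more often than above: 90 against 32, 94 against 27, 83 against 39 and 77 against 39 in the same order. Of the 343 regions found in all 5 tables of kidney against blood, 177 (51.6%) were in the band in all 5 blood groups. The range of a region's 5 blood levels had a median of 10.7 percentage points (quartiles 6.24 and 18.8). No per-pool value is at hand to set beside that range, and levels of the same group in different tables come from regions with different ends. The widest range, 69.9 points, was that of Pde11a, a phosphodiesterase gene, with 42.0% in MCW HS, 77.3% and 81.5% in MCW LS at 10 and 7 weeks, 70.6% in CRL LS and 11.6% in CRL HS. The regions behind those levels only partly overlap.

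**Figure D1:**
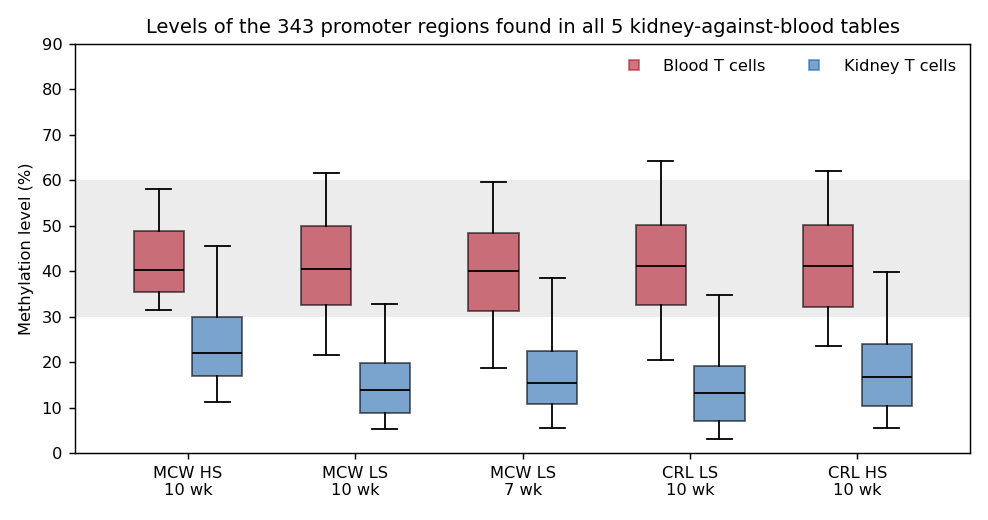
Methylation level in percent (vertical axis) of the 343 regions found in all 5 tables of kidney against blood, for blood and kidney T cells of each group. Boxes span the quartiles with a line at the median, whiskers reach the 5th and 95th percentiles, and the grey band marks 30 to 60%. Blood medians lie near 40% in every group and kidney medians below 30% in every group.

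Among the regions found in all 15 tables, the 8 with the smallest range of blood levels were led by Pde4d (chr2:59724915-59725008, rn5), a phosphodiesterase of cyclic AMP. Its blood levels were 31.9% in MCW HS, 28.9% and 28.8% in MCW LS at 10 and 7 weeks, 31.3% in CRL LS and 29.8% in CRL HS, a range of 3.18 points. Next came Crnkl1, a splicing factor, with a range of 4.82 points around 40%. Cldn4, a claudin of tight junctions in the collecting duct, had a range of 5.52 points. Ptma (prothymosin alpha), Etaa1 (an activator of the ATR kinase), Trak2 with Stradb, and Tpt1 had ranges of 8.08, 8.08, 8.64 and 8.92 points. Etaa1 lay from 44.2 to 52.3% in blood and Ptma from 35.5 to 43.6%. All 8 were called lower in kidney in at least 3 of the 4 tables that the rule did not use.

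A smaller set stayed between 30 and 60% in all 10 groups, blood and kidney, by the levels of the comparisons of kidney with blood. It was defined after the values were seen and holds 6 regions: Mlst8, Lefty1, Pcdhga2, Pcdhgb8, Cdkn1a and Tdrd6. Cdkn1a, which encodes the cell cycle inhibitor p21, had at chr20:8592184-8592290 (rn5) blood levels of 51.3% in MCW HS, 52.4% and 48.2% in MCW LS at 10 and 7 weeks, 51.4% in CRL LS and 50.5% in CRL HS. Its kidney levels in that order were 42.9, 44.3, 41.6, 40.6 and 39.2%. Kidney lay below blood in every group, with no overlap between the tissues, yet none of the 5 differences was called: the authors' deposited table for CRL HS gives the largest, with -11.3 percentage points and an adjusted Mann-Whitney p of 0.183.

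Pcdhgb8 (chr18:30603700-30603815) had the narrowest spread of the 6 in blood. Its blood levels were 47.8, 48.6, 49.2, 49.4 and 49.8% in MCW HS, MCW LS at 10 and at 7 weeks, CRL LS and CRL HS, and its kidney levels 41.5, 37.1, 38.6, 38.6 and 39.0%. None of its differences was called either. Pcdhga2, at chr18:30509535-30509590 in the same gene cluster, had blood levels of 51.4, 49.3, 49.6, 50.5 and 46.3% and kidney levels of 40.0, 31.8, 32.1, 38.2 and 37.1%. It was called lower in kidney in 3 of the 4 tables not used by the rule. The authors' deposited table for MCW LS at 7 weeks gives -17.5 percentage points (adjusted p = 0.00149).

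Mlst8, a subunit of both mTOR complexes, had at chr10:13662238-13662325 blood levels of 48.7, 45.0, 45.3, 48.1 and 46.1% and kidney levels of 42.0, 36.6, 36.1, 32.1 and 39.6%. Of the 4 tables not used by the rule, it was called in that of CRL LS alone. Lefty1, which encodes an inhibitor of Nodal signalling, had blood levels of 50.7, 55.9, 53.4, 56.1 and 56.4% and kidney levels of 41.6, 36.5, 43.0, 33.1 and 38.0%, and was called lower in 3 of the 4. Tdrd6, a germline gene of the chromatoid body, spans chr9:18796154-18796571 with 21 CpGs. It had blood levels of 59.4, 56.4, 40.5, 52.7 and 54.9% and kidney levels of 51.6, 49.1, 31.8, 32.3 and 46.8%, low in both tissues at 7 weeks, and was called lower in both CRL tables. The authors' deposited tables give -20.4 percentage points in CRL LS and -17.7 in CRL HS, the latter more than the difference of its levels. In the comparison of colonies in LS kidney, 9 CpGs of Tdrd6 gave 65.2% in MCW and 82.8% in CRL rats, above the band. The order of the colonies was thus opposite to that above, and the region was called higher in CRL rats. Lefty1 lay at 31.0% and 27.4% there, the latter below the band.

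**Figure D2:**
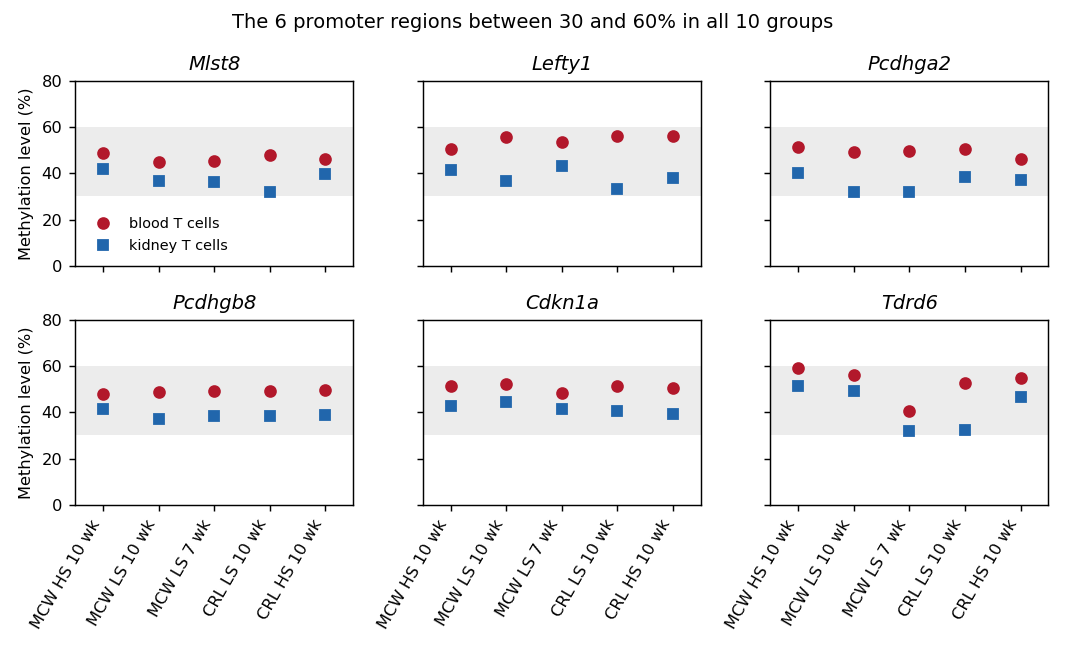
Methylation level in percent (vertical axis) by group (horizontal axis), with circles for blood and squares for kidney T cells. Shown are the 6 regions that lay between 30 and 60% in every group by the comparisons of kidney with blood. Each point is the authors' level over 4 pools, and blood lies above kidney in all 30 pairs.

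Genes known to be imprinted were few, since the rule had removed the main ones. Of a list of 70 imprinted genes, which also held Blcap, 1 of those left out by the rule, 26 had a promoter region and 2 were in the set: Slc22a3, an organic cation transporter, and Cdkn1c, the cell cycle inhibitor p57. Slc22a3 (chr1:51321172-51321388) had 42.8% in blood and 21.8% in kidney of MCW HS rats and was found in no other table of kidney against blood. Cdkn1c (chr1:223522946-223522993) was in the band only where it was chosen. Its blood level was 32.3% there, and 17.7%, 12.5%, 12.5% and 14.4% in MCW LS at 10 and 7 weeks, CRL LS and CRL HS. MicroRNA genes of imprinted clusters gave 3 more regions. Mir675, the microRNA of H19, had 59.7% in blood and 40.3% in kidney of MCW HS rats, and 57.3% against 34.4% in MCW LS at 10 weeks. Mir341 with Mir1188, in the Dlk1 to Dio3 cluster, had blood levels of 41.7, 30.2, 40.4, 38.5 and 31.3% and kidney levels of 28.1, 13.0, 19.3, 15.6 and 18.0% in the order of groups above.

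At most of these promoters the kidney T cells had a lower level than the blood T cells. In the table the rule used, the median was 42.6% in blood and 25.2% in kidney, with 346 regions called lower and 20 higher. Over all its regions, 21.7% were called lower and 2.98% higher, and since the blood level chose the regions nothing is read from this contrast. In the 4 others the kidney medians were 14.5% in MCW LS at 10 weeks, 16.9% at 7 weeks, 13.4% in CRL LS and 18.3% in CRL HS. Calls required an adjusted Mann-Whitney p of the authors under 0.05 together with a difference of at least 10 percentage points. The smallest of these p-values lie below what 4 pools against 4 could give with 1 value per pool, so that finer values, such as single CpGs, were ranked in them, and they do not measure the spread between pools alone.

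In MCW LS rats at 10 weeks 396 of 465 regions (85.2%) were called lower in kidney, against 28.0% of all regions, and 4 higher, against 2.31%. At 7 weeks 331 of 454 (72.9%) were lower, against 19.1%, and 11 higher, against 1.99%. In CRL rats on LS chow 344 of 402 (85.6%) were lower, against 20.5%, and 5 higher, against 1.99%. In CRL rats on HS chow 349 of 464 (75.2%) were lower, against 24.6%, and 7 higher, against 2.61%. The median differences were -23.3, -19.1, -25.4 and -19.8 percentage points, against -4.06, -1.24, -1.85 and -4.53 over all regions. By the authors' separate q-value under 0.05, with the same minimum difference, the regions called lower were 96, 74, 104 and 95. Over all regions they were 2567 of 42856, 2131 of 64151, 2378 of 49145 and 2273 of 48078. Of the 343 regions found in all 4 tables, 241 were called lower in every one and 9 in none. Calls shared by all 4 tables were not counted over all regions, so nothing particular to the set is read from these counts.

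The other groups of regions compared gave lower shares in each of these 4 tables. Promoter regions at 10 to 30% in the same blood were called lower in kidney in 45.1, 34.4, 49.7 and 45.7% of cases in these 4 tables, and those from 60 to 90% in 78.0, 70.6, 70.6 and 63.9%. Regions outside promoters at 30 to 60% in that blood were called lower in 68.2, 59.0, 69.5 and 56.7%. By median difference the promoters from 60 to 90% had -28.9, -21.8, -26.6 and -19.4 percentage points, against -23.3, -19.1, -25.4 and -19.8 for the set. The 34 regions of imprinted genes that the rule left out were lower in 25 of 32, 8 of 25, 22 of 30 and 12 of 31 found. Their medians in kidney were 19.5% in MCW LS at 10 weeks, 26.8% at 7 weeks, 17.8% in CRL LS and 34.6% in CRL HS, against 41.2, 36.3, 41.0 and 41.4% in blood. These bands were set by the same blood level and the shares are a description, with no test of the difference between them.

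**Figure D3:**
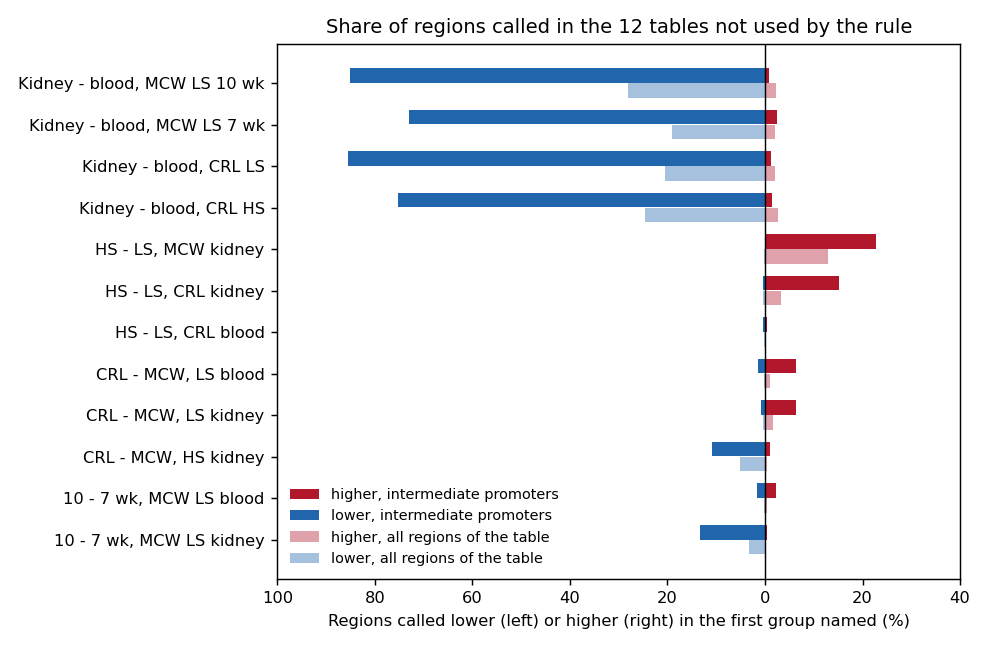
Share of regions in percent (horizontal axis) that were called lower, to the left, or higher, to the right, in the first group of each comparison, for the intermediate promoters (dark) and all regions of the table (pale). The 12 tables that do not use the blood of MCW rats on HS chow are shown. The longest bars are those of kidney against blood, where 72.9 to 85.6% of the intermediate promoters were called lower.

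The kidney samples also differed from blood at promoters of cell type markers. Of the kidney epithelium list of 32 genes, 19 to 22 had a promoter region in a table of kidney against blood, and 13 to 16 of these were called lower in kidney in each of the 5 tables, with at most 1 higher. The summed level of the list's 47 to 53 regions was between 1151 and 1321 percentage points in blood and between 354.1 and 718.1 in kidney. At the promoter of Epcam, an epithelial adhesion molecule, the region of 7 CpGs had 80.1 to 81.3% in blood and 14.1 to 29.0% in kidney. The promoter of Lat, an adaptor of the T cell receptor, had at most 0.188% in blood and 27.6 to 33.7% in kidney. Ubash3a, another T cell gene, had at most 2.78% in blood and 15.0 to 30.4% in kidney. Of the T cell list, 12 or 13 genes had a promoter region, and 4 or 5 were called higher and 1, Il4, lower in kidney in each table. Of the endothelium and stroma list, 6 to 10 genes had one, of which 2 to 4 were lower and 1 or 2 higher. The part of these differences in the results at the intermediate promoters was not tested.

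The largest differences between the tissues, among regions called in at least 3 of the 4 tables, were at Hoxb3, Palm, Gng7, Efna1 and Lzts3. Hoxb3, a homeobox gene, had at chr10:83995748-83995828 (rn5) blood levels of 55.8% in MCW HS, 64.0% and 58.9% in MCW LS at 10 and 7 weeks, 73.3% in CRL LS and 74.8% in CRL HS. Its kidney levels in that order were 17.2, 12.0, 13.0, 12.0 and 22.0%, below the lowest blood level in every group. The authors' deposited table for CRL LS gives -61.3 percentage points, with an adjusted p of 1.66e-12 and a q-value of 7.1e-08. Palm, which encodes the membrane protein paralemmin, had 59.9, 61.1, 60.7, 63.4 and 63.2% in blood and 19.7, 9.01, 11.3, 7.15 and 11.4% in kidney. Its blood levels spanned 3.47 points and its kidney levels were all under 20%, and the CpG-dense Palm window is printed above.

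Efna1, which encodes the ligand ephrin-A1, had 55.6, 66.6, 56.1, 58.6 and 61.0% in blood and 19.6, 6.32, 14.4, 9.29 and 7.51% in kidney. Gng7, a G protein gamma subunit, was found in 3 of the 4 tables and called lower in each, with a median difference of -51.8 percentage points. Lzts3 was the region with the most CpGs of the set, with 28 at chr3:129677371-129678029. It had 54.7, 65.3, 59.1, 68.8 and 64.4% in blood and 24.5, 8.56, 18.8, 11.2 and 18.5% in kidney. In the authors' deposited table for CRL LS its q-value was 9.4e-19, while those of Palm and Efna1, with 5 and 6 CpGs in the table that chose them, were 0.39 and 0.18.

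The kidney epithelial genes of the set were Kl and Cldn4. Kl encodes klotho, the co-receptor for FGF23 in the kidney tubule. At chr12:929804-930004 it had 34.4, 31.6, 36.6, 33.6 and 33.8% in blood and 10.7, 7.10, 10.1, 5.27 and 6.39% in kidney, so that the tissues did not overlap. Cldn4 had 45.8, 41.6, 43.2, 42.1 and 47.1% in blood and 20.9, 11.3, 13.3, 9.06 and 11.1% in kidney over 23 CpGs. Both were called lower in all 4 tables. Zbtb32, a transcriptional repressor of lymphocytes whose region also carries the name of Mir3569, was picked after its values were seen. It had 57.1, 58.6, 58.5, 55.2 and 56.5% in blood and 14.6, 8.14, 11.7, 4.07 and 8.53% in kidney.

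Higher levels in kidney were rare: 14 regions were called higher in at least 1 of the 4 tables, 5 in at least 3 and 2 in all 4. The 2 were Azin2 and Sertad4. Such counts over several tables were not made over all regions. Azin2, which encodes an antizyme inhibitor of polyamine metabolism, had at chr5:150877394-150877486 30.1, 26.8, 27.7, 30.01 and 31.9% in blood and 56.0, 55.3, 59.5, 53.1 and 57.4% in kidney. Sertad4 had 35.7, 39.3, 38.7, 39.1 and 42.3% in blood and 60.8, 59.6, 60.8, 68.5 and 64.6% in kidney. The tissues were apart in every group at both genes. The authors' deposited tables give differences of 23.0 to 31.7 percentage points for Azin2 and 20.3 to 29.4 for Sertad4 in the 4 tables, with q-values of 1 throughout.

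Asic4, of the acid-sensing channel family, and Cd8a, the T cell coreceptor chain, were among those called higher in 3 of the 4. Cd8a was the only member of the T cell list among the 600 regions. At chr4:164017797-164018124 it had blood levels of 42.5% in MCW HS, 40.3% and 41.1% in MCW LS at 10 and 7 weeks, 52.2% in CRL LS and 57.7% in CRL HS. Its kidney levels were 64.2, 64.2, 71.9, 67.5 and 67.3%. Blood was lower in MCW than in CRL rats and kidney lay above blood in every group. The difference in CRL HS, 9.63 percentage points in the authors' deposited table (adjusted p = 0.0433), was the 1 of the 4 that fell short of the minimum difference. No region of the B cell, natural killer cell, myeloid or salt and oxidant lists was in the set.

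**Figure D4:**
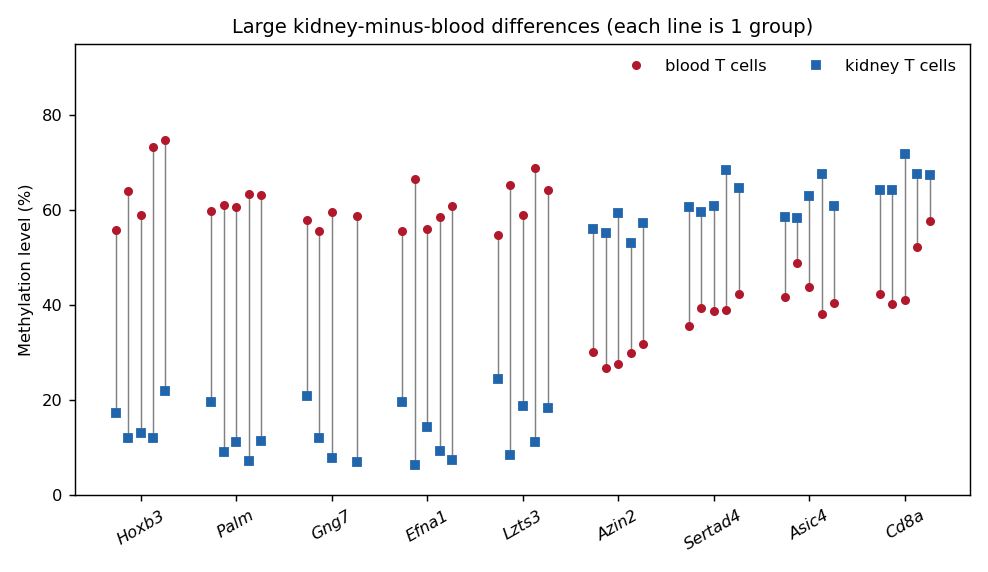
Methylation level in percent (vertical axis) in blood (circles) and kidney (squares) T cells for the 5 regions with the largest negative and 4 of the 5 with the largest positive median difference, each line joining the tissues of 1 group in the order MCW HS, MCW LS at 10 weeks, MCW LS at 7 weeks, CRL LS and CRL HS. Kidney lies under 25% at the first 5 genes, and above blood at the last 4. Gng7 has no line for CRL LS, where it was not found.

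The remaining named members of the lists were mixed. Syce2, of the synaptonemal complex, was called lower in kidney in all 4 tables, with 41.3% against 16.9% in MCW LS at 10 weeks. The 2 regions of Boll, a germ cell RNA-binding protein, were close between tissues where they were chosen, at 49.3% and 32.0% in blood and 47.3% and 30.9% in kidney of MCW HS rats, and were followed into no other table of kidney against blood. Col1a1, a collagen of stroma, was lower in both tables in which it was found, with 46.5% against 16.9% in MCW LS at 7 weeks. Egfl7, an endothelial factor, had 35.9% in blood and 50.2% in kidney of MCW HS rats. Gadd45b, a stress gene linked to DNA demethylation, was lower in both tables in which it was found, with 58.7% against 10.1% in MCW LS at 10 weeks.

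HS chow was compared with LS chow at 10 weeks in each colony and tissue. In kidney of MCW rats 97 of 426 regions found (22.8%) were called higher on HS chow, against 13.0% of all regions, and none lower, against 0.235%. The median level was 13.7% on LS and 21.4% on HS chow, and the median difference was 7.46 percentage points, against 1.85 over all regions. In kidney of CRL rats 44 of 288 (15.3%) were higher, against 3.29%, and 1 was lower, against 0.428%. The median there was 13.0% on LS and 17.9% on HS chow, with a median difference of 4.82 points against 0. By the authors' q-value 13 and 7 regions were higher in MCW and CRL kidney, against 372 of 34115 and 57 of 39016 over all regions. In blood of CRL rats 1 of 290 was higher, against 0.137%, and 1 lower, against 0.265%. In blood of MCW rats, whose HS group chose the regions, 6 of 282 were higher, against 0.200%, and 4 lower, against 0.268%, and nothing is read from these.

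The shares of the neighbouring bands were on either side of these. In MCW kidney 6.38% of promoter regions at 10 to 30% in the choosing blood and 40.4% of those at 60 to 90% were called higher on HS chow, and in CRL kidney 2.90 and 16.9%. Regions outside promoters at 30 to 60% in that blood were called higher in 27.9% of cases in MCW and 11.5% in CRL kidney. The imprinted regions left out by the rule were higher in 24 of 32 in MCW and 15 of 28 in CRL kidney. On the kidney epithelium list 9 of 21 genes with a promoter region were higher in MCW kidney on HS chow, Aqp1, Epcam and Hnf4a among them, and 2 of 18 in CRL kidney, where 1 was lower. On the T cell list 3 of 12 genes (Cd8a, Grap2 and Il4) were higher and none lower in MCW kidney, and none of 11 was called in CRL kidney. The part of these lists in the results on chow was not tested.

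Ndufa10, which encodes a subunit of respiratory complex I, changed most. Over the 9 CpGs at chr9:99316810-99316835 (rn5) its level in MCW kidney was 8.98% on LS chow and 61.8% on HS chow. The authors' deposited table gives 52.9 percentage points, an adjusted p of 4.17e-11 and a q-value of 1.6e-08. In CRL kidney it went from 6.81% on LS chow to 32.5% on HS chow, where the authors' deposited table gives 25.7 points with an adjusted p of 0.0019 and a q-value of 0.29. In blood its levels were 62.8% (LS) and 39.9% (HS) in MCW rats, and 69.3% and 62.0% in CRL rats by the tables of kidney against blood. The name joins Ndufa10 and Ndufa10l1, so that reads of related copies may be split or shared.

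Prrc2c was also among the 3 largest in MCW kidney. It rose from 10.6% on LS chow to 42.9% on HS chow there, and from 6.78% to 27.6% in CRL kidney. Cd8a rose from 37.7% on LS chow to 69.6% on HS chow in a region of 5 CpGs that is not the 1 of the table of kidney against blood, where LS kidney had 64.2%.

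Of the 259 regions found in both kidney tables, 63 were called higher on HS chow in MCW and 41 in CRL rats, and 27 regions with 24 gene labels in both. These 27 are 42.9% of the first and 65.9% of the second list. The 2 tables share no samples. The calls shared by both tables were not counted over all regions. Whether this overlap is particular to the intermediate promoters was therefore not tested. The set held Ndufa10, Prrc2c, both Rn7sl1 regions, Ptma, Crnkl1, Cmss1, Crb2, RGD1566401, Bbs4, Ndufb4, Uhmk1, MGC95208 and Mn1, and 4 entries under Rn5-8s and Commd5. Crb2, an apical polarity protein, rose from 16.8% to 39.9% with HS chow in MCW kidney, with 15.6% and 27.1% in CRL kidney.

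**Figure D5:**
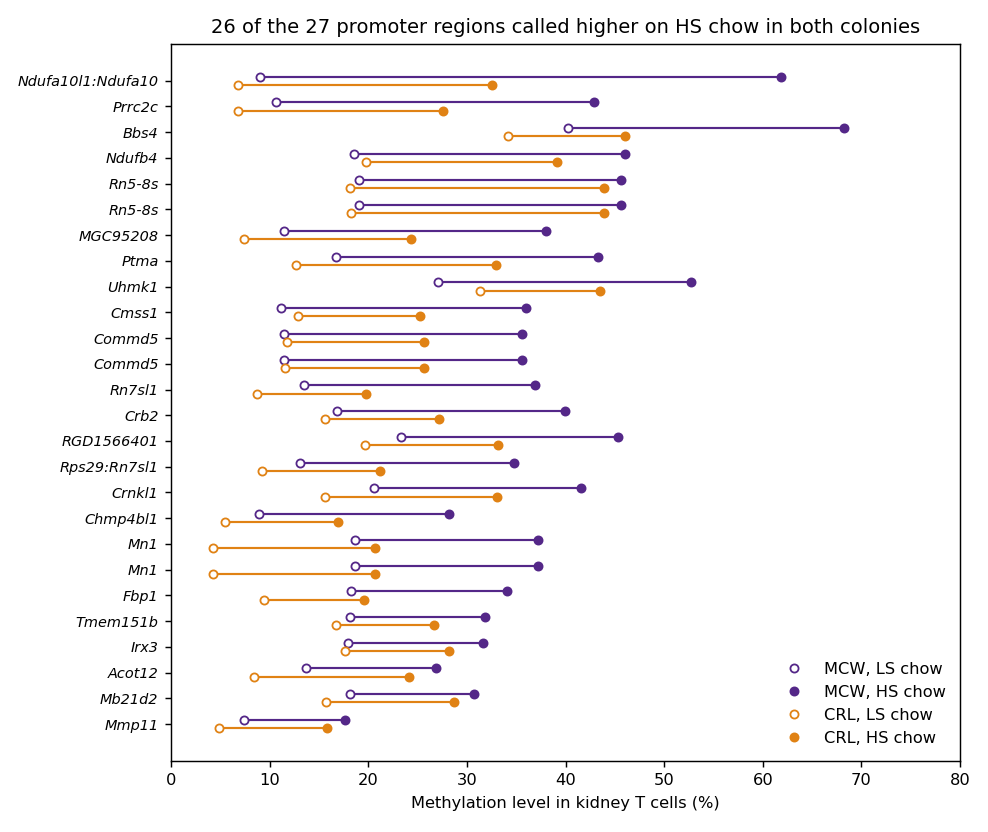
Methylation level in percent (horizontal axis) in kidney T cells on LS (open circles) and HS chow (filled circles) for 26 of the 27 regions called higher on HS chow in both colonies, with MCW and CRL rats in separate colours. Ndufa10 moves furthest in MCW rats, from 8.98 to 61.8%, and Mn1 and Commd5 each appear under 2 regions with about the same values.

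In CRL kidney the 3 largest rises on HS chow were at Rmdn3 and 2 Rn5-8s regions. Rmdn3, a protein of contacts between mitochondria and endoplasmic reticulum, was 22.7% on LS and 52.9% on HS chow. The Rn5-8s regions on chromosomes 1 and 6 took the same value on HS chow, 43.9%, from 18.1 and 18.2% on LS chow. In the comparisons of kidney with blood, the same 2 regions had 15.0 and 18.1% on LS and 20.9% each on HS chow. The size of this rise thus depended on the comparison. The 1 region called lower was Etaa1, with 44.1% on LS chow against 32.1% on HS chow. In CRL blood the 2 calls were Rfk, the riboflavin kinase, with 27.9% on LS and 46.9% on HS chow, and Mn1, a transcriptional regulator, with 52.1% and 40.3%. Their q-values in the authors' deposited table were 1.

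Ndufa10, Prrc2c, Crb2, both Rn7sl1 regions, Cmss1 and RGD1566401 were also among the 8 regions called in most of the 12 tables, with 8 each. All 8 were called lower in kidney than in blood in all 4 tables, and higher on HS chow in both kidneys. RGD1566401 rose from 23.4% on LS chow to 45.3% on HS chow in MCW kidney, and Cmss1 11.1% and 36.0%. At the other end 135 regions were called in none of the 12 tables, of which 29 were found in none. The number of tables with a call was not counted over all regions, so whether these counts are particular to the set was not tested.

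The colonies were compared on each chow. On LS chow, 19 of 296 regions (6.42%) were higher in CRL than in MCW blood, against 1.07% of all regions, and 4 lower, against 0.185%. In LS kidney 17 of 265 (6.42%) were higher, against 1.65%, and 2 lower, against 0.510%. There the median difference was -2.19 percentage points although more regions were called higher than lower, since 147 of the 265 differences were below 0. In HS kidney 4 of 376 were higher, against 0.506%, and 41 (10.9%) lower, against 5.13%. In HS blood, which includes the group that chose the regions, 14 of 321 were higher, against 0.946%, and 1 lower, against 0.167%. The 14 fall on 10 distinct regions of that table. These tables share their groups with the comparisons of chow.

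In LS blood the largest rises in CRL rats were at an Rn5-8s region, Gpx2 and Psenen. The Rn5-8s region on chromosome 14 was 31.9% in MCW and 47.9% in CRL rats over 30 CpGs. The authors' deposited table gives 21.1 percentage points for it, more than the difference of those levels. Gpx2, a glutathione peroxidase, was 49.1% in MCW and 68.0% in CRL rats, and Psenen, of gamma-secretase, was 40.0% and 58.3%. Rfk was 47.9% in MCW and 26.1% in CRL rats, Asna1, of the tail-anchored protein pathway, 58.8% and 44.0%, and Kdf1, of keratinocyte differentiation, 45.0% and 32.2% over 5 CpGs, the 3 largest falls. For Kdf1 the tables of kidney against blood, which cover more or other CpGs of the region, give blood levels in the opposite order, 38.9% in MCW LS over 24 CpGs and 44.0% in CRL LS over 5. Apart from the Rn5-8s region, with 4.5e-05, these had a q-value of 1 in the authors' deposited table.

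In LS kidney 3 of 11 protocadherin regions were higher in CRL rats and none lower. Pcdhga10 was 25.0% in MCW and 52.4% in CRL rats, and Pcdhga12 28.8% and 54.8%. These were the largest and next largest of the set there, ahead of Tescl at 38.8% and 60.7%. Rgn, which encodes the calcium-binding protein regucalcin on the X chromosome, was 16.6% in MCW and 5.18% in CRL rats and was 1 of the 2 falls. The q-values of these 4 were 1 in the authors' deposited table.

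In HS kidney Ndufa10 fell most, with 62.2% in MCW and 26.8% in CRL rats, and the authors' deposited table gives -35.5 percentage points, an adjusted p of 3.04e-06 and a q-value of 0.0054. Chmp4bl1 was 41.6% in MCW and 20.5% in CRL rats. Cxxc5, a CXXC zinc finger protein, was 48.9% in MCW and 28.8% in CRL rats. The largest rise was at LOC310926 on chromosome 1, with 20.6% in MCW and 36.2% in CRL rats over 31 CpGs. It is 1 region of that table that 3 of the 600 regions overlap, so that 3 of the 4 calls higher are the same measurement.

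Age was compared in MCW rats on LS chow, at 10 against 7 weeks. In kidney 42 of 316 regions (13.3%) were called lower at 10 weeks, against 3.38% of all regions, and 1 higher, against 0.206%. In blood 7 of 305 were higher, against 0.375%, and 5 lower, against 0.289%. Promoter regions at 10 to 30% in the choosing blood were called lower in kidney in 2.91% of cases, and those at 60 to 90% in 15.9%. Regions outside promoters at 30 to 60% were lower in 12.1%, and the imprinted regions left out in 18 of 28. In blood 2.98% of the regions outside promoters were higher and 1.97% lower. The median level of the set in kidney was 17.0% at 7 and 13.2% at 10 weeks. On the kidney epithelium list 5 of 19 genes with a promoter region were lower in kidney at 10 weeks and none higher, and the part of that here was not tested. By the q-value 2 of the 42 stayed, among them Lzts3, at 16.8% and 1.34% (q-value 0.0015 in the authors' deposited table). Over all regions 41 of 48640 were lower in kidney by the q-value.

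The largest falls in kidney were at Pde11a, Mrap2 and RGD1563348. Pde11a was 70.7% at 7 and 47.4% at 10 weeks. Mrap2, an accessory protein of melanocortin receptors, was 42.3% and 21.9%, and RGD1563348, on another chromosome, 42.3% and 22.0%. Nearly equal levels at these 2 regions, in blood too (46.7% at both in MCW LS at 10 weeks), mark them as uncertain as separate loci. Pla2g3, a secreted phospholipase, was the 1 rise, from 51.2 to 68.0%. Of 10 protocadherin regions found in kidney, 6 were lower at 10 weeks and none higher. They fall on 4 distinct regions of that table. Pcdhga12 was 43.2% at 7 and 28.0% at 10 weeks, and Pcdhga10 40.7% and 30.1%.

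In blood Trappc6a, of the vesicle-tethering TRAPP complex, rose most with age, from 25.7 to 53.1%, with an authors' adjusted p of 1.7e-05 and a q-value of 1 in the deposited table. On HS chow at 10 weeks its MCW blood level was 34.7% in the table that chose it. Rfk was 29.99% at 7 and 45.5% at 10 weeks, and both copies of Kdf1 were 31.9% and 45.8%. The falls were Psenen, with 54.8% and 40.0%, Pcdhb2, with 59.8% and 45.1%, and Ppp1r3d, a glycogen-targeting subunit of protein phosphatase, with 38.5% and 24.9%. Each of these rests on 5 to 7 CpGs.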

How the data were processed

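Reduced representation bisulfite libraries of blood and kidney T cells were compared by the authors in 15 deposited tables, each of 2 groups of 4 pools. The authors deposited each group's level as a fraction (0 to 1), which is given in percent in the text, together with a difference of their own. That difference and the subtraction of the deposited levels were more than 0.1 percentage points apart at 3.19 to 4.78% of a table's regions. The deposited p-value columns are a Mann-Whitney p-value with its adjusted form and a separate q-value. Per the submitters' processing notes the build is rn5. Whether starts count from 0 or 1 is not stated. The identity of the aligner and of the methylation caller is not given in the sources used here. Neither a value per pool nor a depth is in the tables. No interval or test over pools was therefore computed, and the authors' p-values were used. They reach 1.66e-12 at these regions. The smallest two-sided p that 8 pools split 4 and 4 allow in an exact rank test is 0.0286, so finer values than 1 per pool, such as its CpGs, served as the replicates in the deposited p-values, and a call is not a test over 4 independent pools against 4. No per-sample column was set aside.

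Regions, gene names and the TSS class are those of the tables. Regions were followed by the largest shared length on the same chromosome (at least 1 bp), and calls need an adjusted p under 0.05 and at least 10 percentage points. Scripts ran in Python 3.11.15 and were tested on simulated tables. The 600 members, the gene lists and the rules were chosen with earlier results of these data known. Families of genes were grouped after the names were seen. Named genes were those of a list of imprinted genes, the 8 with the smallest range in blood, the 8 called most often, the 5 largest differences between tissues in each direction, the 3 largest of each other comparison in each direction, and members of the marker lists. Some of these are not reported here. Promoter windows come from RefSeq's GRCr8 annotation, matched by symbol. Alternatives changed the minimum difference, the p-value, the overlap, the band and the number of CpGs.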

Additional observations from a re-analysis of the deposited data

How the results depend on the processing

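Shares here are of the regions found, summed over the tables of a comparison that the rule did not use, with those called higher before those called lower. As reported they were 1.51 and 79.6% for kidney against blood, 14.1 and 0.199% for HS against LS chow, 4.27 and 5.02% for CRL against MCW, and 1.29 and 7.57% for 10 against 7 weeks. Of the regions followed into the other blood groups 73.1% lay in the band, and between 66.1 and 84.2% under the alternatives tried. By the authors' q-value the shares were 0.0560 and 20.7%, 1.99 and 0%, 1.07 and 0.320%, and 0 and 0.322%. With no minimum difference the shares for chow were 30.9 and 1.10%, for colony 9.71 and 18.2%, and for age 9.02 and 15.6%. With a minimum of 20 percentage points those called higher in kidney were 0.840%, and the pairs were 3.59 and 0% for chow, 0.534 and 0.427% for colony and 0.161 and 0.644% for age. For colony these were 5 higher and 4 lower of 937, against 40 and 47 as reported, so that no change of order is read from them. Requiring 50% of both regions to overlap gave 0.332% lower on HS chow and 2.15% higher in CRL rats. Blood levels from 40 to 60% gave 0.360% lower on HS chow. With at least 10 CpGs 0.775% were higher in kidney, 2.27% lower on HS chow, 7.84% higher and 7.84% lower in CRL rats, and 0% higher at 10 weeks. Leaving out 57 regions of repeated sequence, an alternative chosen after seeing the data, moved no share by over 1.5 times. The causes were not tested. Some of the limits left fewer regions, as few as 63 with at least 10 CpGs. Of 312 calls of named regions, 186 had a difference of 20 points or more and 120 passed by the q-value. The stricter overlap could follow 219 of them. Where it keeps a region it is the same region as before, so these calls could not change. No paired analysis was possible because the tables hold no value per pool, although blood and kidney pools share numbers, and no pool could be left out in turn.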

Other observations

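Further families among the 600 regions were grouped after their names were seen and are given as values. Of the 11 regions of microRNA genes, that of Mir182, a microRNA known from activated lymphocytes, had a higher kidney than blood level in each of the 4 groups in which it was found: 76.2% against 56.8% in MCW HS, 58.0% against 51.4% and 70.6% against 49.9% in MCW LS at 10 and 7 weeks, and 80.3% against 70.2% in CRL HS. Mir6314 had blood levels of 42.7, 45.2, 42.7, 43.1 and 43.4% in MCW HS, MCW LS at 10 and 7 weeks, CRL LS and CRL HS, and kidney levels of 23.3, 14.3, 16.0, 20.6 and 16.4%. Mir378, whose region also carries the name of Ppargc1b, a coactivator of mitochondrial genes, had 50.3, 52.8, 52.7, 55.1 and 53.3% in blood and 18.7, 9.55, 13.3, 4.63 and 9.03% in kidney.

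Olfactory receptor genes, which are silent outside the nose in most cells, gave 8 regions with blood levels from 56.0 to 59.2% where they were chosen. Olr157 appears 3 times with the same levels, 56.0% in blood and 52.3% in kidney of MCW HS rats and 55.1% and 47.8% in CRL HS. Olr1462, over 15 CpGs, was 61.98% in blood and 34.7% in kidney of CRL rats on LS chow. Of 5 regions with the name of a ribosomal protein, Rps20 was level between tissues, at 48.6% in blood and 51.8% in kidney of MCW HS rats, 48.5% and 52.7% in MCW LS at 7 weeks, and 50.4% and 49.1% in CRL HS. Rpl38 was 21.4% in blood of MCW LS rats at 10 weeks and 46.0 to 49.2% in the 3 other blood groups in which it was found. Hoxa6 has 2 regions on chromosome 4 with nearly the same levels, such as 57.2% in blood and 10.8% in kidney of MCW LS rats at 10 weeks, and is uncertain as 2 loci. Hoxc5 with Mir615 had 31.6% in blood and 47.3% in kidney of MCW HS rats, and 32.0% against 22.6% in CRL LS.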
